A study of Bombyx mori with 2 samples.

Results

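Ommochromes and pteridines, together with melanin, give the epidermis of the silkworm *Bombyx mori* its colour. This account concerns 4 enzyme genes of these pigments, taken by their SilkDB gene identifiers as the study names them. They are *KFM* (BGIBMGA007856) and *PHS* (BGIBMGA006740) of ommochrome synthesis, and *GTP-CH I a* (BGIBMGA001235) and *GTP-CH I b* (BGIBMGA008134) of pteridine synthesis. The 4 genes are among 6641 genes in which the deposited tables list a variant site, that is, a position where reads differed from the SilkDB genome sequence. They hold 19 of the 47001 listed sites, all of them single-base substitutions and none an indel.

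Epidermis was taken from 4th-instar larvae 6 hours after molting and sequenced as 1 RNA-Seq library of 932VR, the wildtype plain strain, and 1 library of q-lp, a mutant with quail markings and light purple skin that was obtained from 932VR and kept by inbreeding. Each sample was taken from 3 silkworms. The tables carry 1 set of read columns with no library name. The counts were treated as pooled over 932VR and q-lp, but the columns do not state this. Whether they hold reads of both libraries or of only 1 is therefore unknown. Reads of 932VR and q-lp cannot be told apart, and no value below is a difference between the strains. With 1 library per strain there is no replicate check. The tissue could not be checked against its markers, because the tables give no expression level.

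Ommochromes are made from tryptophan through kynurenine. Kynurenine formamidase (*KFM*) releases kynurenine from its formyl precursor, and phenoxazinone synthetase (*PHS*) joins hydroxylated kynurenine into the ommochrome xanthommatin. GTP cyclohydrolase I opens pteridine synthesis by converting GTP into the first pterin compound of the pathway. The same route leads to tetrahydrobiopterin, the cofactor that tyrosine hydroxylase needs, and in this way it also touches melanin.

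The tables name a gene only by its identifier, so the primer pairs with which the authors amplified the 4 transcripts in their qRT-PCR are shown to identify them by sequence. They are written 5′ to 3′ in lower case, with nothing in capitals because the primers were not placed on the scaffolds. Whether a listed site falls within a primer is therefore unknown. The *PHS* forward primer has 26 bases and a GC content of 30.8%, while the other 7 primers have 18 or 20 bases and a GC content of 45.0% to 61.1%.
*KFM* forward: tgtgccctacggttacgc
*KFM* reverse: atggagccgattagagcc
*PHS* forward: aaagtttatcgtaagtttagcacagt
*PHS* reverse: cgactcgcttcgctgata
*GTP-CH I a* forward: attctgggtctcagcaaact
*GTP-CH I a* reverse: ctggactcctcgcatcac
*GTP-CH I b* forward: agggctcgttcgttggta
*GTP-CH I b* reverse: gaagtcctcggcgtcatt

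The listed sites of the 4 genes were of 2 kinds. All 11 sites of *PHS* were read with both the reference and the alternative base. All 8 sites of the other 3 genes were read with the alternative base only. For comparison, every read had the alternative base at 84.9% of all listed sites, and 73.2% of all genes held no other kind of site. Both values are over sites of any coverage. Every listed site has at least 2 alternative reads, so a site of 2 reads can only be of this kind. The sites of *KFM*, *GTP-CH I a* and *GTP-CH I b* had 2 to 13 reads, and a reference base could be missed at that depth. A site was called mixed when the alternative base had 20% to 80% of its reads at a coverage of at least 10 reads. By this rule 10 of 12 sites of the 4 genes were mixed, all 10 of them in *PHS*, against 21.0% of the 18174 sites of that coverage in the tables. The 10 lie in the same gene and can share reads, so they are not separate measurements. Of the 4 genes, only *KFM*, *PHS* and *GTP-CH I a* had a site of that coverage. Among these, *PHS* alone had at least 50% of such sites mixed, as did 20.7% of all genes with such sites.

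**Figure D1:**
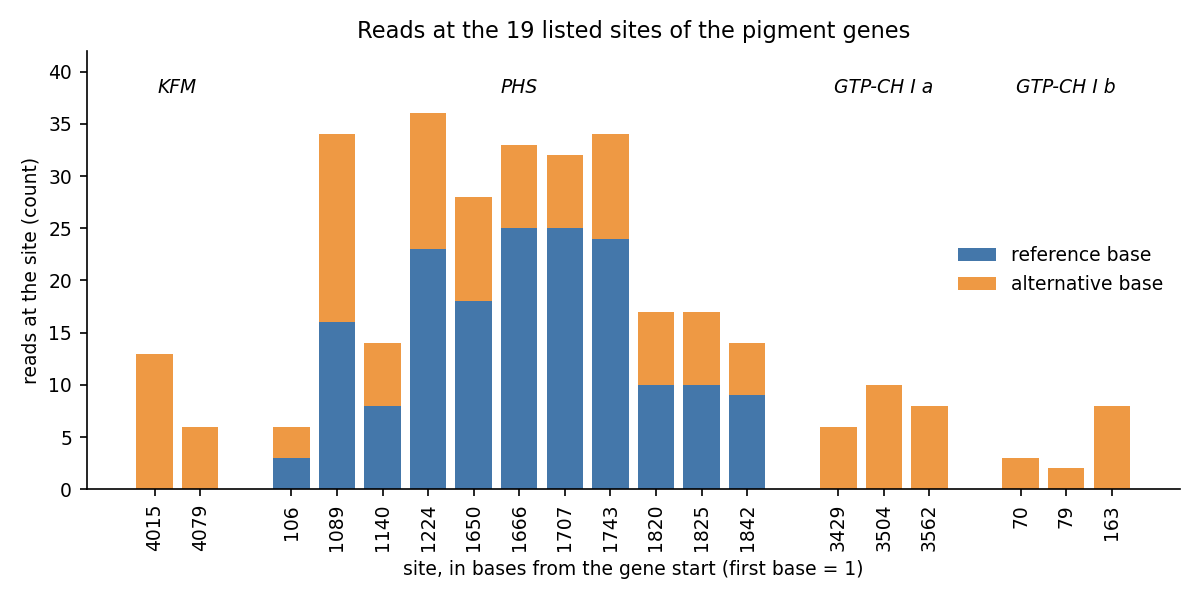
Reads with the reference base (blue) and with the alternative base (orange) at each of the 19 sites, as stacked counts, with the sites of each gene in order along it and labelled by their distance from the gene start in bases. Only the 11 *PHS* bars have a blue part, and the bars of the other 3 genes reach no higher than 13 reads.

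*PHS* lies on scaffold Bm_scaf10 from 4413306 to 4415258, a span of 1953 bp. Its 11 sites make 5.63 sites per kb of gene span, where the median gene of the tables had 0.842. *GTP-CH I b* had more, 10.0 per kb over a span of 300 bp. These densities were not adjusted for coverage. They were also not adjusted for exon length, which is not given. A gene with a short span can therefore have a high density without more sites in its transcript. The coverage of the 11 *PHS* sites ran from 6 to 36 reads with a median of 28, while the median over all listed sites was 7. Substitutions are written below as the reference base, the position on the scaffold and the alternative base. Of the 11, 9 were transitions (a purine for a purine or a pyrimidine for a pyrimidine) and 2 were transversions, beside 66.4% transitions among all substitutions. The tables give neither the strand nor the exons of the gene, so whether a substitution alters the protein was not tested.

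The *PHS* site nearest to the gene start, G4413411A, stood alone, 983 bases before the next. It had 3 reads of each base, and at this depth the alternative share of 50% has an exact (Clopper-Pearson) 95% interval of 11.8% to 88.2%. The other 10 sites lay within 753 bases and ended 111 bases before the gene end. All intervals given here are of this kind and cover counting error only.

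In the middle of the gene, C4414394T had 16 reference and 18 alternative reads. Its alternative share of 52.94% (35.1% to 70.2%) was the highest in *PHS*, and the only share above 50% in the gene. T4414445C had 8 and 6 reads (42.86%), and T4414529C had 23 and 13 reads (36.11%), the deepest site with 36 reads. The alternative base was thus a large minority at both, and their intervals of 17.7% to 71.1% and 20.8% to 53.8% include 50%.

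Towards the gene end, A4414955G had 18 reference and 10 alternative reads (35.71%), and G4414971A had 25 and 8 reads (24.24%). T4415012C had 25 and 7 reads, and its share of 21.88% (9.28% to 40.0%) was the lowest in the gene. A4415048C had 24 and 10 reads (29.41%). These 4 sites lie within 93 bases and carried the reference base in most of their reads. G4414971A, T4415012C and A4415048C were the only 3 sites of the 10 whose interval stayed below 50%.

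The last 3 sites, G4415125A, T4415130C and T4415147A, lie within 22 bases of each other. The first 2 had the same 10 reference and 7 alternative reads (41.18%), and the last had 9 and 5 reads (35.71%). Sites this close can be read on the same fragments, so they are not separate measurements. Over the 10 sites, 9 had more reference than alternative reads, and the median alternative share was 35.9%. Among the 3824 mixed sites of the tables the median share was 43.8%, and 59.8% of them had a share below 50%. The intervals of the lowest and the highest *PHS* share overlap, between 35.1% and 40.0%. Such an overlap does not show that the shares are alike, and differences between the sites were not tested.

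**Figure D2:**
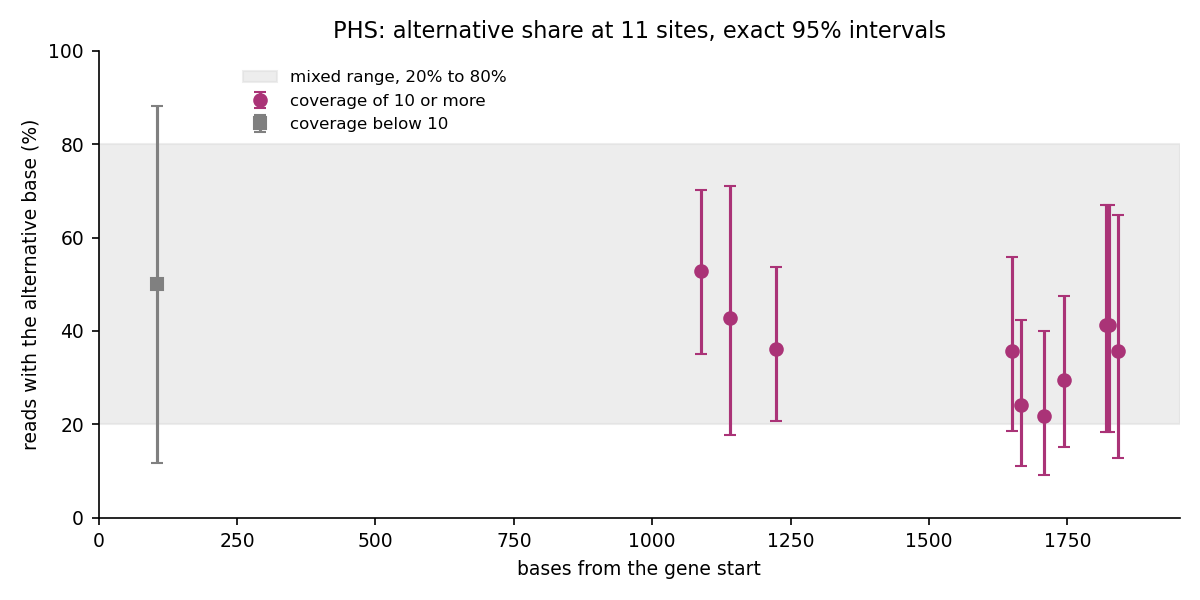
Alternative share (percent of reads) at the 11 *PHS* sites against distance from the gene start in bases, with exact 95% intervals. The 10 sites of at least 10 reads run from 21.88% to 52.94%, inside the shaded range from 20% to 80%, and the grey square is the site of 6 reads.

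A gene in which at least 10 sites reached 10 reads and every one was mixed was uncommon. The minimum of 10 sites is the number that *PHS* itself has, and it was chosen with earlier results known. Of 490 genes with at least 10 such sites, 17 had every one mixed, or 3.47%, and *PHS* was among them. In the other 16 the median share of a gene ran from 33.3% to 57.1%, and it was below 50% in 12. The gap between the lowest and the highest share within a gene was 31.1 percentage points in *PHS*. In the other 16 it ran from 23.1 to 58.6 points with a median of 33.3, so the spread within *PHS* was near the middle of theirs.

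*KFM* lies on Bm_scaf3 from 3772772 to 3776960. Its 2 sites, 64 bases apart and within the last 174 bases of the 4189-bp span, were C3776786T with 13 of 13 reads alternative and A3776850G with 6 of 6. For C3776786T the interval of the alternative share, 75.3% to 100%, lies above those of all 10 *PHS* sites of at least 10 reads. The 6 reads of the second site give an interval of 54.1% to 100%, and at that depth a rarer reference base was not detectable.

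*GTP-CH I a* lies on Bm_scaf1 from 10729703 to 10738863, the longest span of the 4 genes with 9161 bp. Its 3 sites lie within 133 bases. C10733131T had 6 of 6 reads alternative, T10733206C 10 of 10 and C10733264T 8 of 8. All 3 are transitions, and the deepest has an interval of 69.2% to 100%. Among the *PHS* sites of at least 10 reads, it overlaps the intervals of T4414445C and C4414394T. These reach 71.1% and 70.2%.

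*GTP-CH I b* lies on Bm_scaf52 from 1719696 to 1719995, a span of only 300 bp. T1719765A had 3 reads, G1719774A 2 and G1719858A 8, every one with the alternative base. None of the 3 sites reached 10 reads, so the gene has no allele share by the rule used here. Between the 2 cyclohydrolase genes no difference in allele state was therefore detectable at this depth.

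The coverage of the 8 sites outside *PHS* was 2 to 13 reads, below the 14 to 36 reads of the mixed *PHS* sites. Fewer reads leave fewer sites to be listed and wider intervals, and the part of depth in the contrast between *PHS* and the other 3 genes was not tested.

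Other genes of these routes were taken from a fixed list. Both ommochrome-binding proteins, which carry the pigment, lie together on Bm_scaf92, *OBP1* (BGIBMGA007285) from 470463 to 471251 and *OBP2* (BGIBMGA007286) from 475785 to 476573. *OBP1* had 8 sites of 2 to 4 reads and *OBP2* had 21 sites of 2 to 53 reads, 8 of them with at least 10. The alternative base had every read at all 29 of these sites, as it had at 84.9% of all listed sites. Most of the 29 had fewer than 10 reads, and a site of 2 reads can only be of this kind. Tyrosine hydroxylase (*TH*, BGIBMGA000563), which uses tetrahydrobiopterin, had no listed site. Of the 7 pigment genes named here, *PHS* was the only one with a mixed site, and only *PHS*, *KFM*, *GTP-CH I a* and *OBP2* had a site of at least 10 reads.

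The genes around *PHS* were examined next, to see whether they share its state. A gene was called mixed when at least 50% of its sites of 10 or more reads were mixed, which held for 751 of 3625 genes, or 20.7%. Of the 10 nearest genes with such a site on each side of *PHS*, 7 were mixed on the side of lower coordinates and 0 on the side of higher coordinates. By sites the counts were 15 of 20 and 0 of 121. With a narrower mixed range, 30% to 70%, 3 of the 10 lower-side genes and again 0 of the 10 higher-side genes were mixed. The 2 sides differ in more than direction: the 10 genes reach 282 kb away on the lower side and 701 kb on the higher side, where the nearest such gene lies 421 kb from *PHS*.

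On the lower side, the nearest mixed gene was BGIBMGA006738, 142 kb from *PHS*, with 1 site at 30% of 20 reads. BGIBMGA006736 had 1 site at 38.46% of 13 reads. BGIBMGA006735 had 4 sites, all mixed, from 28.0% to 31.58%. These 3 neighbours had shares close to those of the end of *PHS*.

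BGIBMGA006607 had 2 sites at 20.83% and 20.88%, near the lower limit of the rule, at 72 and 91 reads. BGIBMGA006734 had 4 mixed sites from 54.55% to 69.23%, so that the alternative base was the more frequent there. BGIBMGA006733 had 1 site at 25.76%, and BGIBMGA006610 had 1 mixed site of 2, at 22.06%. The share of the alternative base thus changed from gene to gene, and of the 15 mixed sites 11 were below 50%.

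The 3 lower-side genes not called mixed were of 2 sorts. BGIBMGA006603, the nearest of all to *PHS* at 100 kb, had 1 site with every one of 48 reads alternative, and BGIBMGA006608 had 1 such site of 28 reads. BGIBMGA006609 had both bases at each of 3 sites, but the share was below 20% at 2 of them. Sites with every read alternative thus stood between mixed ones. A site like this needs only that no reference read was counted, in whichever library the reads came from.

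On the higher side the alternative base had every read at 118 of the 121 sites, and the lowest share at the other 3 was 96.3%. The gene with the most sites of this stretch, BGIBMGA006589, had 56 sites of 10 to 82 reads, and BGIBMGA006591 had 16 of 22 to 88. The median coverage of the 121 sites was 30 reads, close to the 31 reads of the 20 sites on the lower side, and 0 reference reads among 30 allow a share of up to 10.0%. Between *PHS* and BGIBMGA006745, the first gene of this side, the tables list a single site, in BGIBMGA006742 at 3 reads. No site of 10 or more reads thus lies in the 421 kb between the last mixed gene and the first gene that was not mixed. With sites of 5 or more reads taken in, 1 gene of the higher side was mixed, BGIBMGA006746, 427 kb from *PHS*, with 2 of 5 reads alternative at its site.

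**Figure D3:**
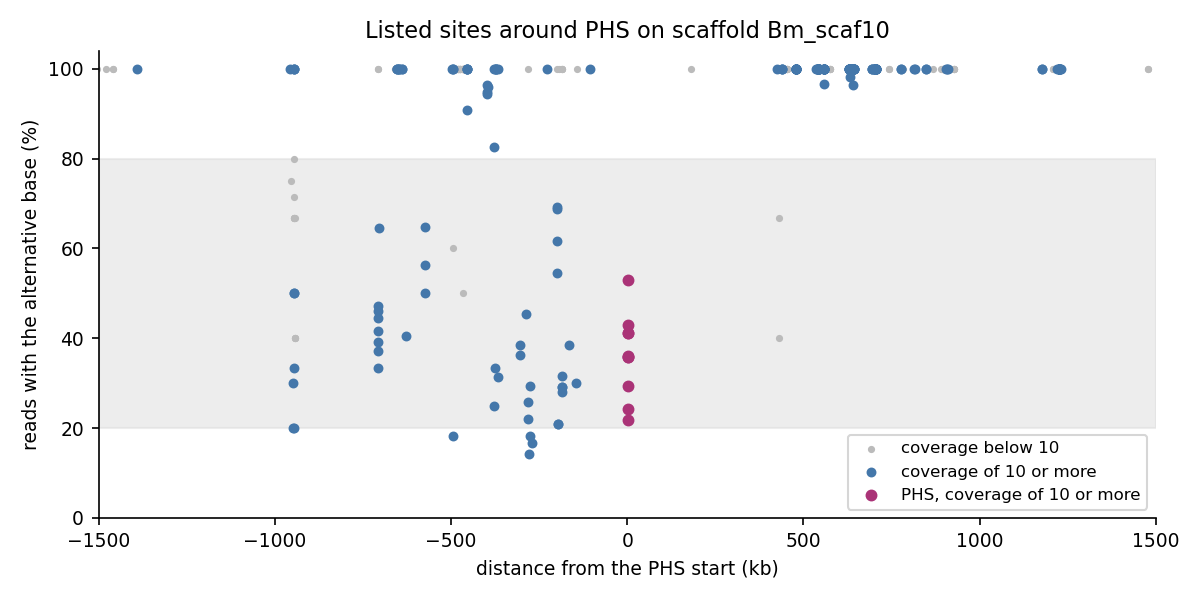
Alternative share of each listed site within 1500 kb of the *PHS* start on Bm_scaf10, against distance in kb, for sites of at least 10 reads (blue, and purple for *PHS*) and of fewer reads (grey), with the range from 20% to 80% shaded. Blue points fill the shaded range on the left of *PHS*, and none lies in it on the right, where the blue points stay at 96.3% or above.

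Along the whole scaffold the mixed state came in stretches, which were marked off after their values had been seen. The 13 genes before BGIBMGA006623 (3456103 to 3476956) had 0 mixed sites of 21. From that gene up to *PHS*, over 959 kb, 13 of 24 genes were mixed, with 39 of 76 sites, *PHS* itself left out. The next 33 genes, over 2562 kb, had 0 mixed sites of 243, and BGIBMGA006788 (6977437 to 6982671) was the first gene beyond them with the mixed state, at 9 of 9 sites. *PHS* was the last mixed gene of its stretch.

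The same count was made around the other 3 genes. Around *KFM*, 11 of 20 neighbours were mixed, 6 on the lower and 5 on the higher side, although *KFM* itself had no reference read. These neighbours reach 1501 kb away on the lower side and 703 kb on the higher side. The nearest mixed genes were BGIBMGA007845, 534 kb away on the lower side, and BGIBMGA007865, 193 kb away on the higher side. The genes between them and *KFM* were not called mixed. Its closest neighbour, BGIBMGA007855, lies 4.64 kb away and had shares of 100%, 22.22% and 14.29% at 3 sites of 14 to 18 reads. Sites with both bases thus lay near *KFM*, but the genes called mixed were farther off. No reference read was counted at the 2 *KFM* sites, of 13 and 6 reads. The interval of the deeper site excludes shares below 75.3%, but the mixed range reaches above that limit. Whether *KFM* shares the state of its mixed neighbours could therefore not be decided at this depth.

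Around *GTP-CH I a*, 2 of 20 neighbours were mixed. One of them, BGIBMGA000910, is the closest on the higher side at 17.4 kb and had 8 mixed sites of 10 with a median share of 29.2%. Around *GTP-CH I b*, 1 of the 15 genes of the scaffold with such sites was mixed. It was BGIBMGA008168 at 1223 kb, with 17 mixed sites of 34, exactly at the limit of 50%. The nearest gene, BGIBMGA008136 at 41.4 kb, had every read alternative at all 7 sites. In these 2 neighbourhoods 10.0% and 6.67% of the genes had the mixed state, beside 20.7% of all genes with such sites.

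**Figure D4:**
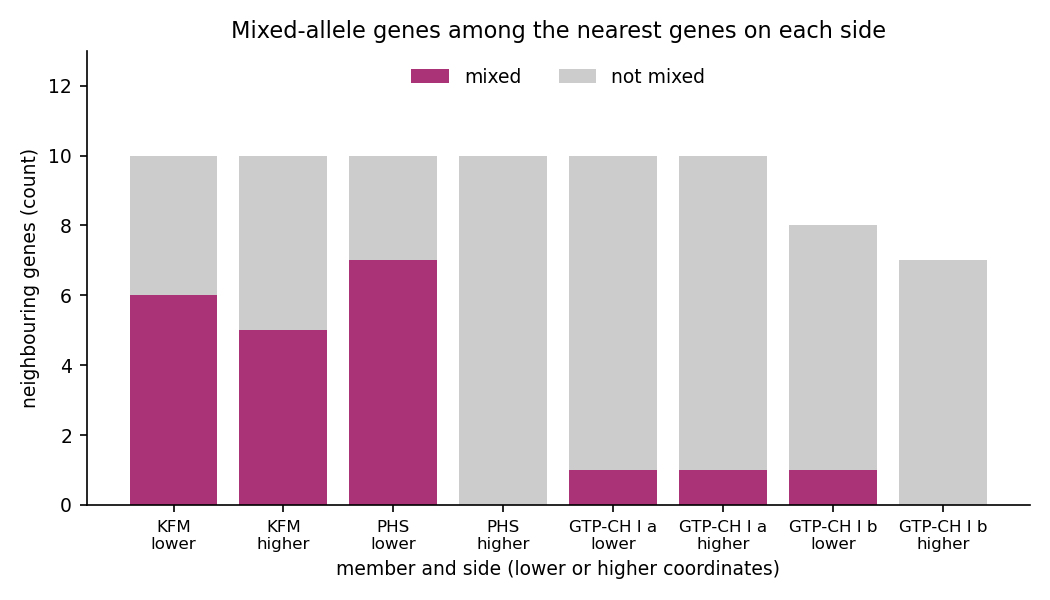
Number of mixed (purple) and not mixed (grey) genes among the 10 nearest genes with a site of at least 10 reads on the lower and the higher side of each gene. *PHS* has 7 mixed genes of 10 on the lower side and 0 of 10 on the higher side, *KFM* has 6 and 5, and fewer than 10 genes were found on each side of *GTP-CH I b*.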

How the data were processed

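RNA-Seq reads of 932VR and q-lp epidermis were aligned by the authors to the SilkDB silkworm genome. The assembly version and the caller of the sites are not given in the sources used here. The 2 deposited tables hold for each site a count of covering reads (the coverage) and the percent of them with the alternative base. The product of both, whole to within 0.006 reads at every site, gave the reads with the alternative base, and the remainder those with the reference base. Listed sites have at least 2 alternative reads and 2 to 100 reads in all. No column names a library, and treating the counts as pooled over 932VR and q-lp was an assumption.

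The 4 genes, the rules and the list of other pigment genes were chosen with earlier results of these data known. Genes named are the 4 members, the *PHS* neighbours and that list, and others are named as nearest or first of their kind after their values had been seen. Of the list, 12 names could not be tied to a SilkDB identifier by the RefSeq gene table, and their genes were not analysed here; 1 further gene of the list is not reported here. Sites listed under more than 1 gene were counted once in totals. Shares used sites of at least 10 reads, with exact (Clopper-Pearson) 95% intervals, and the limit at 0 reads used 3 reads. No test was run: sites of a gene share reads and are not replicates. Alternatives were coverage of 5, 20 or no minimum, mixed ranges of 10% to 90% and 30% to 70%, substitutions only, other neighbour numbers and any mixed site per gene. Counting was tested on simulated data. Python 3.11.15, pandas 2.3.3, SciPy 1.17.1 and Matplotlib 3.10.9 were used. Expression values of the paper were not used here.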

Additional observations from a re-analysis of the deposited data

How the results depend on the processing

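All mixed sites of the 4 genes lay in *PHS* under each alternative. Their number, 10, became 6 with a minimum coverage of 20 reads, where *PHS* alone of the 4 genes kept sites, and was 7 to 11 otherwise. The mixed neighbours of *PHS*, 7 of 20, became 4 of 10 with 5 genes on each side, 15 of 75 over the whole scaffold and 3 of 20 with a mixed range of 30% to 70%. On the lower side these counts were 4 of 5, 13 of 37 and 3 of 10. On the higher side the count of 0 became 2 of 38 over the scaffold, and 1 of 10 with a minimum coverage of 5 reads or none. Around the other 3 genes together, 14 of 55 neighbours were mixed. This became 7 of 30, 65 of 253 and 4 of 55 under the same 3 changes, and 5 of 29 with genes within 500 kb. Within 500 kb of *PHS* itself, 9 of 18 genes were mixed on the lower side and 0 of 3 on the higher side. The alternatives by side and around the other 3 genes, and the 500 kb distance, were chosen after seeing the data. The cause of these changes was not tested beyond the number of genes or sites counted. No paired analysis was possible because each strain had 1 library, and for the same reason no library could be left out. Sites of 2 to 13 reads limit what can be said of *KFM* and the cyclohydrolase genes.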
